A study of Bos taurus with 6 samples.

Results

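The genes described here are the nuclear genes whose symbols begin with NDUF, which encode subunits and assembly factors of respiratory complex I. They were measured in bovine oocytes of 3 Holstein cows of 2nd parity on 2-colour oligonucleotide arrays. A probe was a member when the platform annotation gave it a symbol that starts with NDUF, which picked 62 of 43794 probes, for 41 of 15229 gene symbols. All 62 passed the filter on dim probes, and 52 of them were above the negative control spots in all 12 readings (6 arrays, both dyes). Each gene is represented by its brightest probe unless another is named.

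In the antagonist condition a cow received follicle-stimulating hormone (FSH) every 12 h for 3 days and then 68 h of coasting, meaning no FSH, with the gonadotropin-releasing hormone (GnRH) antagonist cetrotide given throughout coasting. In the control condition the same cow had the same FSH course and the same 68 h of coasting alone. Cetrotide keeps GnRH from its receptor in the pituitary, which otherwise drives the release of luteinizing hormone. Both conditions thus share the FSH stimulation and the coasting, and they were at least a month apart in each cow. Each condition of a cow was a separate session, so a difference between sessions cannot be told apart from an effect of the antagonist. The order of the conditions is not given here. Oocytes were picked up from the follicles, freed of cumulus cells by hand, and extracted as a pool whose number of oocytes is not stated in the labels. Antagonist and control RNA of a cow were amplified and hybridised together, and a second array carried the same pair in swapped dyes. The 6 arrays therefore hold 3 replicates, 1 per cow.

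Complex I, or NADH:ubiquinone oxidoreductase, is the main entry point of electrons into the mitochondrial respiratory chain. Its matrix arm takes electrons from NADH and passes them along iron-sulfur clusters to ubiquinone, and its membrane arm pumps protons across the inner mitochondrial membrane. The catalytic core is encoded partly in the nucleus and partly in mitochondrial DNA, the accessory subunits surround it, and assembly factors build the complex without remaining in it. An oocyte makes most of its ATP by oxidative phosphorylation, largely of pyruvate that the surrounding cumulus cells supply, and its mitochondria are those the embryo inherits.

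The labelled cell type was checked against marker genes. Of 13 oocyte markers measured, 12 were above background in all 12 readings, and their summed normalised intensities were between 115431 and 128145 in antagonist RNA and between 113397 and 124816 in control RNA. The sums of 10 granulosa and cumulus markers were 4440.83, 3831.15 and 5867.95 in antagonist RNA of cows 1, 2 and 3, against 4199.74, 4918.58 and 4219.33 in control RNA. Those of 8 theca and stroma markers were 15126.6, 32848.7 and 31298.7 in antagonist RNA and 16191.1, 30153.9 and 27971.2 in control RNA. For 6 blood and endothelial markers they were between 1369.6 and 1721.74 in antagonist RNA and between 1414.07 and 1784.97 in control RNA. Transcripts of these other cell types were detected too. Of the granulosa and cumulus markers 6 of 10 were above background in all 12 readings. So were 6 of 8 theca and stroma markers and 3 of 6 blood and endothelial markers. The sum of the theca and stroma list was lower in cow 1 than in cows 2 and 3 in both conditions. STAR, with a mean log2 intensity of 14.3, made up most of it, while CYP17A1, INSL3, PDGFRA and COL1A1 of that list were between 7.43 and 7.72. VIM (10.4), FN1 (10.2) and COL1A2 (8.51) lay between and were above background in all 12 readings. VIM had the largest mean ratio of the list, with log2 ratios of 0.33, -0.04 and 1.52 in cows 1, 2 and 3. Of the 10 granulosa and cumulus markers, 5 had a mean ratio above 0 and 5 below. Among them, INHBA and INHA had log2 ratios of 1.48 and 1.40 in cow 3. HAS2 and PTGS2 had log2 ratios of -0.98 and -0.97 in cow 2. The part of other cell types in the results that follow was not tested.

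Antagonist treatment was set against control to ask how the block of GnRH signalling during coasting bears on the oocyte's transcripts. The largest ratios at an unadjusted p below 0.05 were those of 5 genes, 3 of them for accessory subunits of the proximal membrane arm. They were NDUFA8 (probe EMBV3_14026, 2.41-fold), NDUFA3 (EMBV3_05902, 2.31-fold), NDUFA9 (EMBV3_32728, 2.25-fold), NDUFS7 (EMBV3_02775, 2.16-fold) and NDUFA13 (EMBV3_20385, 2.12-fold), and each was higher with antagonist in all 3 cows, although none passed correction for multiple tests. Over all 41 genes the median log2 ratio of antagonist over control was 0.0084, against 0.0044 over all 12314 genes tested, and 22 of 41 were above 0 (53.7%), against 52.0% of all genes. This median was -5.01e-05 when arrays were centred on their medians in place of loess. In RNA of whole oocytes, fewer cells with a transcript and less of it per cell cannot be told apart.

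Correction was made over the 32527 probes tested with limma. The lowest adjusted p among the NDUF genes was 0.28, and no gene of the array passed at 0.05, a background of 0%. At an unadjusted p under 0.05, 10 of 41 genes (24.4%) differed, against 15.1% of all genes tested. Of these, 8 were higher with antagonist (19.5%, against 8.57% of all genes) and 2 were lower (4.88%, against 6.57%). When a 1.5-fold difference was also required, 5 genes were left (12.2%), against 3.36% of all genes, or 2.76% in the direction of higher with antagonist. Signal strength moves with these shares: among the 8672 genes above background in all 12 readings the share at an unadjusted p under 0.05 was 19.5%, against 8 of 37 NDUF genes (21.6%), which are close to each other. By direction, 6 of the 37 were higher with antagonist (16.2%), against 943 of the 8672, and 2 were lower (5.41%), against 746. The 1.5-fold share was 13.5% of those 37, against 4.66%. Leaving out cow 1 turned the count of 10 into 22, leaving out cow 2 gave 8, and leaving out cow 3 gave 4. The share of all probes past the same threshold moved with it, at 22.8%, 7.93% and 4.89%, against 12.7% with all 3 cows.

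A fit that kept the 6 arrays single, with the cow as a random block and a dye term, called 5 of the 41 genes at an adjusted p under 0.05, against 3.52% of all genes. They were NDUFA3, NDUFA9, NDUFA11, NDUFA13 and NDUFS7, all higher with antagonist. That fit assumes the same correlation of a cow's 2 arrays for every probe, which it estimated at 0.77. It also counts a cow's 2 hybridisations apart, so its calls do not rest on cows alone. With the 2 arrays of a cow averaged, none of the 41 genes passed. By the limma F-test given below, NDUFA3, NDUFA9, NDUFA13 and NDUFS7 differed between cows at an adjusted p under 0.05, and NDUFA11 did not. Whether a correlation of 0.77 is high enough for such genes was not tested.

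**Figure D1:**
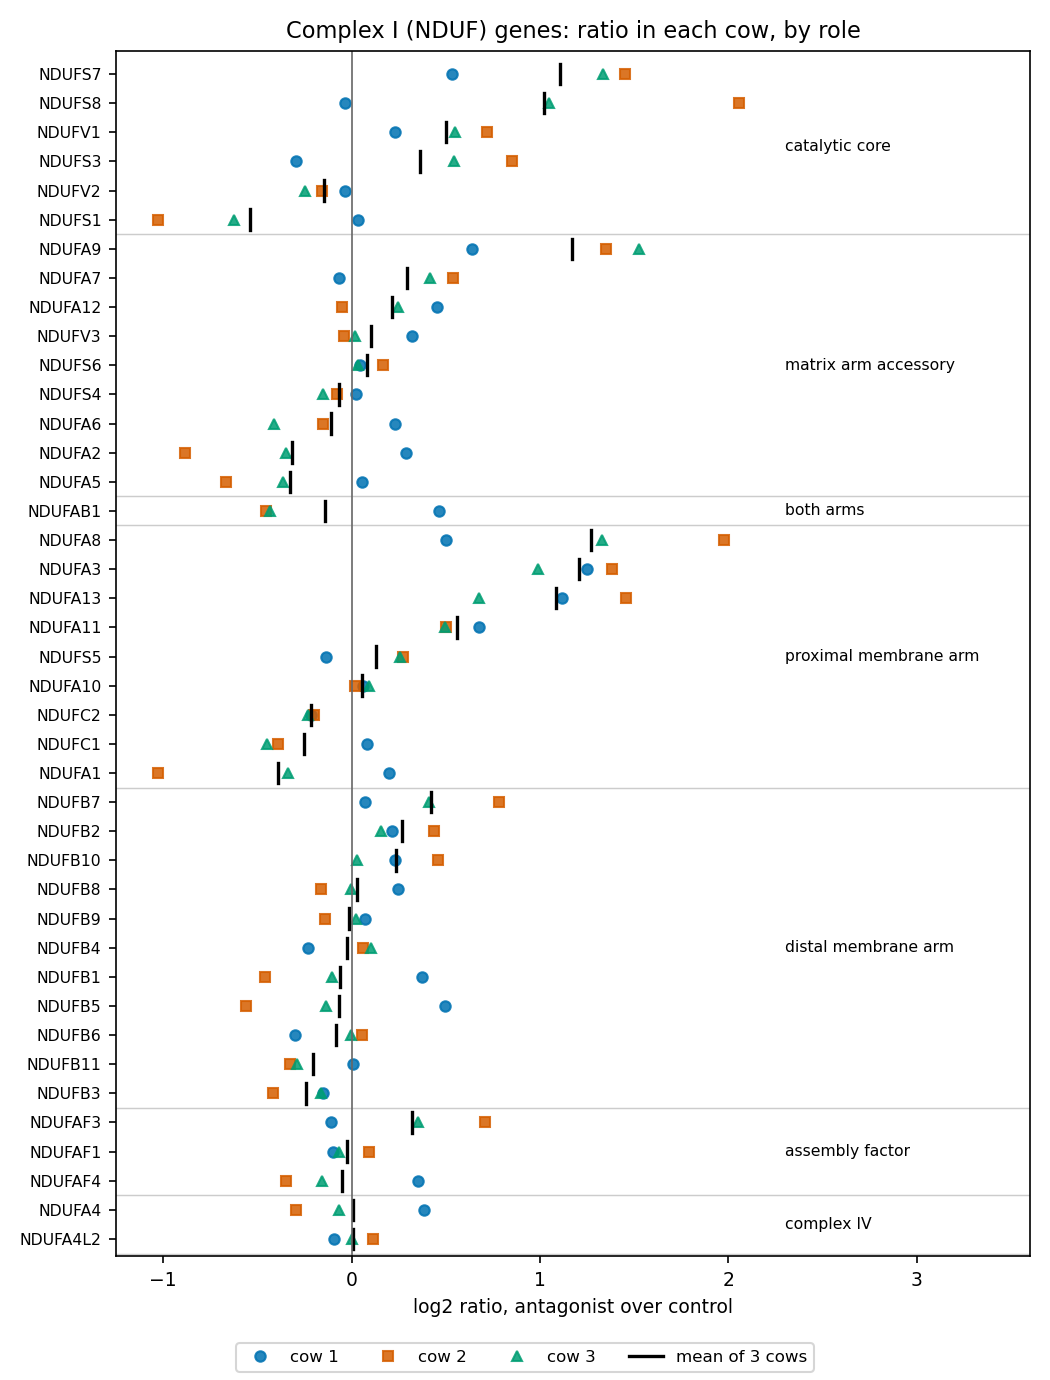
Log2 ratio of antagonist over control (x axis) of the 41 NDUF genes, 1 row each, sorted by role and by mean. Circles, squares and triangles are cows 1, 2 and 3 (mean of 2 arrays each) and the bar is their mean. The points of NDUFA3, NDUFA8, NDUFA9, NDUFA13 and NDUFS7 all lie above 0.5, while most genes of the distal membrane arm scatter around 0.

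The nuclear catalytic core, which carries the flavin and the iron-sulfur clusters, was split. Of its 6 measured genes, 4 had a mean ratio above 0 and 2 below, 2 were higher at an unadjusted p under 0.05 and none lower, and the median log2 ratio was 0.43. NDUFS7 encodes the iron-sulfur subunit next to the ubiquinone site. Its normalised log2 intensities, averaged over both dyes, were 9.38, 10.27 and 10.27 in antagonist RNA of cows 1, 2 and 3, against 8.84, 8.82 and 8.93 in control RNA. Every antagonist value lay above every control value, and the mean log2 ratio was 1.11 ± 0.50 (SD, n = 3 cows; limma adjusted p = 0.29). On 5 of its 6 arrays the ratio was positive.

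NDUFS8, whose iron-sulfur clusters precede that of NDUFS7 on the electron path, had log2 intensities of 10.13, 11.77 and 10.98 with antagonist, against 10.16, 9.72 and 9.94 in control. Cows 2 and 3 were clearly higher with antagonist and cow 1 was level, so the groups overlapped. The mean log2 ratio was 1.02 ± 1.05 (SD, n = 3; limma adjusted p = 0.47), a spread as large as the difference. NDUFS3, a core subunit of the same region that binds no cluster, followed the same order of cows, with log2 ratios of -0.30, 0.85 and 0.54 in cows 1, 2 and 3.

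NDUFV1 binds NADH and the flavin at the tip of the matrix arm. Its log2 intensities were 7.77, 8.18 and 8.03 with antagonist, against 7.54, 7.46 and 7.48 in control, where only 4 of 6 readings exceeded background. The groups did not overlap, with a mean log2 ratio of 0.50 ± 0.25 (SD, n = 3; limma adjusted p = 0.31). NDUFV2, its iron-sulfur partner, had a log2 ratio of -0.15 ± 0.11 (SD, n = 3; limma adjusted p = 0.44). NDUFS1, the large iron-sulfur subunit that passes electrons on from the flavin pair, had the lowest mean of the 41 genes. Its log2 intensities were 11.33, 10.52 and 10.67 with antagonist, against 11.30, 11.55 and 11.29 in control. Cows 2 and 3 were lower with antagonist, cow 1 was not, and the mean log2 ratio of -0.54 ± 0.54 (SD, n = 3) had a limma adjusted p of 0.46.

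Among 9 accessory genes of the matrix arm, 5 had a mean ratio above 0 and 4 below, with a median log2 ratio of 0.08. NDUFA9 alone passed an unadjusted p under 0.05. It encodes an accessory subunit with a dehydrogenase-like fold that sits beside the ubiquinone site. Its log2 intensities were 10.25, 10.86 and 11.05 with antagonist, against 9.61, 9.51 and 9.52 in control. All 6 arrays gave a positive ratio, the groups did not overlap, and the mean log2 ratio was 1.17 ± 0.47 (SD, n = 3; limma adjusted p = 0.29). The other genes of this list had mean log2 ratios between -0.33 for NDUFA5 and 0.30 for NDUFA7. NDUFS4 and NDUFS6, subunits needed to complete the NADH-oxidising tip, were at -0.07 and 0.08. NDUFAB1, the mitochondrial acyl carrier protein found in both arms, had log2 ratios of 0.46, -0.46 and -0.44 in cows 1, 2 and 3, a mean of -0.14 ± 0.53 (SD, n = 3).

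The 9 accessory genes of the proximal membrane arm, the part that joins the matrix arm, held 4 of the 8 genes that were higher at an unadjusted p under 0.05, and 1 that was lower. Their median log2 ratio was 0.13. NDUFA8, an intermembrane-space subunit with paired cysteine motifs, had log2 intensities of 12.99, 13.62 and 13.46 with antagonist, against 12.49, 11.64 and 12.14 in control. The groups did not overlap, and the mean log2 ratio of 1.27 ± 0.74 (SD, n = 3; limma adjusted p = 0.33) was the highest of the 41 genes. The log2 ratios of cows 1, 2 and 3 were 0.50, 1.98 and 1.33.

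NDUFA3, a small single-span subunit, had log2 intensities of 9.24, 9.10 and 9.10 with antagonist, against 7.99, 7.72 and 8.11 in control. It was the most even of the large ratios, at 1.25, 1.38 and 0.99 in cows 1, 2 and 3, and had the smallest p of the family (log2 ratio 1.21 ± 0.20, SD, n = 3; limma adjusted p = 0.28). NDUFA13, also known as GRIM-19 for its link to cell death induced by interferon and retinoic acid in human cells, had log2 intensities of 10.56, 10.29 and 10.002 with antagonist, against 9.44, 8.83 and 9.32 in control. All 3 cows were higher with antagonist, cow 3 by least, and the mean log2 ratio was 1.08 ± 0.39 (SD, n = 3; limma adjusted p = 0.29).

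NDUFA11, a membrane subunit at the contact of the arm with other respiratory complexes, had log2 intensities of 8.31, 7.91 and 8.11 with antagonist, against 7.64, 7.41 and 7.61 in control. The groups did not overlap and the cows were close to each other, with a mean log2 ratio of 0.56 ± 0.10 (SD, n = 3; limma adjusted p = 0.28). The change of 1.47-fold left it just under the 1.5-fold threshold, at a dim probe with 5 of 6 control readings above background. Its log2 ratio was 0.51 without background correction and 0.69 with the median of the local background. Its side of the threshold thus depended on the background correction. NDUFC2, a membrane subunit, was lower with antagonist in all 3 cows by nearly the same amount. Its log2 intensities were 11.38, 10.09 and 10.51 with antagonist, against 11.60, 10.29 and 10.75 in control. The levels of the cows differed more than the conditions, so the groups overlapped, while the log2 ratios were -0.22, -0.20 and -0.23 (limma adjusted p = 0.29). NDUFA1, a small subunit of the junction, had log2 ratios of 0.20, -1.03 and -0.34, and NDUFS5 and NDUFA10 had means of 0.13 and 0.06.

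The 11 genes of the distal membrane arm, the NDUFB subunits at the far end of the proton-pumping arm, kept close to 0 in their means. Their mean log2 ratios ran from -0.24 to 0.42 with a median of -0.02, 4 above 0 and 7 below. Single cows lay further apart, with log2 ratios from -0.56 to 0.78 in cow 2. By the limma F-test given below, 10 of the 11 differed between cows at an adjusted p under 0.05. NDUFB2 was higher at an unadjusted p under 0.05, with log2 intensities of 12.66, 12.81 and 12.74 with antagonist against 12.44, 12.38 and 12.58 in control (log2 ratio 0.27 ± 0.15, SD, n = 3; limma adjusted p = 0.34). NDUFB3 was lower, at 9.85, 9.63 and 9.85 with antagonist against 10.0015, 10.04 and 10.01 in control (log2 ratio -0.24 ± 0.15, SD, n = 3; limma adjusted p = 0.37). For both genes the groups did not overlap, and neither passed correction. When the variance model of limma followed intensity, the 2 genes lower at an unadjusted p under 0.05, NDUFB3 and NDUFC2, were no longer called, with 9 genes higher and 0 lower, and NDUFC2 was not called unpaired either. NDUFB7, another intermembrane-space subunit, had the highest mean of the list at 0.42 ± 0.35 (SD, n = 3; limma adjusted p = 0.42), but was above background in 5 of 6 antagonist readings and in 1 of 6 control readings. NDUFB6, a subunit of the same arm, was at -0.08 ± 0.19 (SD, n = 3).

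The assembly factors showed no difference beyond the spread between cows. NDUFAF3 and NDUFAF4 act together on the early part of the complex around the ubiquinone site, and NDUFAF1 on the early membrane arm. NDUFAF3 had log2 intensities of 9.80, 9.32 and 10.08 with antagonist, against 9.91, 8.61 and 9.72 in control, a log2 ratio of 0.32 ± 0.41 (SD, n = 3; limma adjusted p = 0.56). NDUFAF4 was at -0.05 ± 0.36 and NDUFAF1 at -0.03 ± 0.10 (SD, n = 3 each). NDUFA4, whose product is now placed in complex IV, had log2 ratios of 0.39, -0.30 and -0.07 in cows 1, 2 and 3, a mean of 0.0084. NDUFA4L2, its relative that is induced by low oxygen in human and mouse cells, had a mean of 0.0066 and was above background in 3 of 6 antagonist readings and 1 of 6 control readings.

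**Figure D2:**
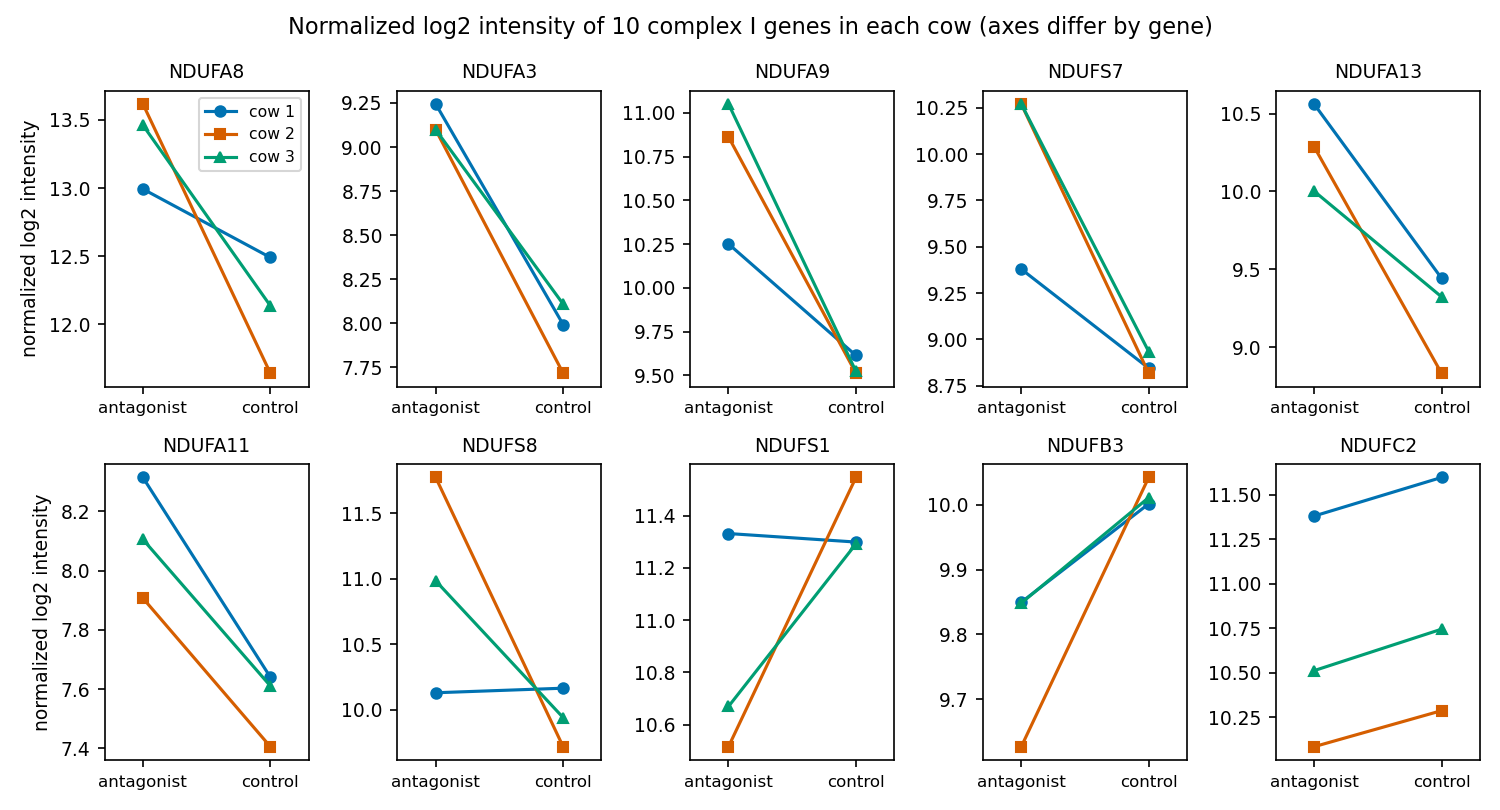
Normalised log2 intensity (y axis) of 10 NDUF genes with large or even ratios, antagonist left and control right in each panel, with a line for each cow. All antagonist values lie above all control values for NDUFA8, NDUFA3, NDUFA9, NDUFS7, NDUFA13 and NDUFA11, and the lines of NDUFC2 are nearly parallel.

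Across the family, the intensities of the conditions did not overlap for 11 of 41 genes (26.8%), against 16.8% of all genes. Among genes above background in all 12 readings it was 8 of 37 (21.6%), against 19.6%. A ratio of the same sign on all 6 arrays was found for 8 genes (19.5%), against 14.8%. A ratio above 0 in all 3 cows was found for 12 genes (29.3%), against 20.7%, and below 0 in all 3 for NDUFB3, NDUFC2 and NDUFV2 only (7.32%, against 17.1%). Of genes above background in all 12 readings, 9 of 37 were above 0 in all 3 cows (24.3%), against 1846 of 8672. Below 0 in all 3 were 3 of 37 (8.11%), against 1650 of 8672. The same sign on all 6 arrays was found for 6 of those 37 (16.2%), and the share of all such genes is not given here. What the family shared more widely was a difference between cows. A limma F-test that the 3 cows have equal ratios, in a fit of the 6 arrays with a dye term, passed an adjusted p under 0.05 for 33 of 41 genes (80.5%), against 54.5% of all genes. Among genes above background in all 12 readings it was 31 of 37 (83.8%), against 70.0%. This test sets cows against the difference of 2 hybridisations, and does not tell animals from RNA preparations. NDUFA8, NDUFA13, NDUFS7, NDUFA3 and NDUFA9 were among the 33, while NDUFA11 and NDUFC2 were not, with adjusted p-values of 0.20 and 0.92.

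Cows 2 and 3 resembled each other. Across the 41 genes Pearson's r of their log2 ratios was 0.93, against 0.80 across all genes; these are descriptions over genes that share arrays and RNA, not independent replicates. Cow 1 correlated with cow 2 at 0.32 and with cow 3 at 0.41, against 0.21 and 0.29 across all genes. Cows 2 and 3 had the same sign for 35 of 41 genes (85.4%), against 70.2% of all genes. For cows 1, 2 and 3 the SD of the log2 ratios over the 41 genes was 0.34, 0.76 and 0.52, against 0.23, 0.48 and 0.31 over all genes.

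A pattern positive in cow 1 and negative in cows 2 and 3 was found for 14 genes (34.1%), against 15.6% of all genes and 18.4% of those above background in all 12 readings. It included NDUFS1, NDUFA1, NDUFA2, NDUFA5 and NDUFAB1, and also NDUFB1 and NDUFB5 of the distal arm. NDUFA2, a thioredoxin-fold subunit of the matrix arm, had log2 intensities of 9.92, 9.16 and 9.59 with antagonist, against 9.63, 10.04 and 9.93 in control. Its antagonist RNA was the brighter in cow 1 and the dimmer in cows 2 and 3, with log2 ratios of 0.29, -0.88 and -0.35. NDUFB5 had log2 intensities of 11.80, 10.94 and 11.43 with antagonist, against 11.31, 11.50 and 11.57 in control, the same order. The opposite pattern, negative in cow 1 and positive in cows 2 and 3, was found for 6 genes (14.6%, against 16.8% of all genes), NDUFS3, NDUFS5, NDUFS8, NDUFA7, NDUFB4 and NDUFAF3.

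**Figure D3:**
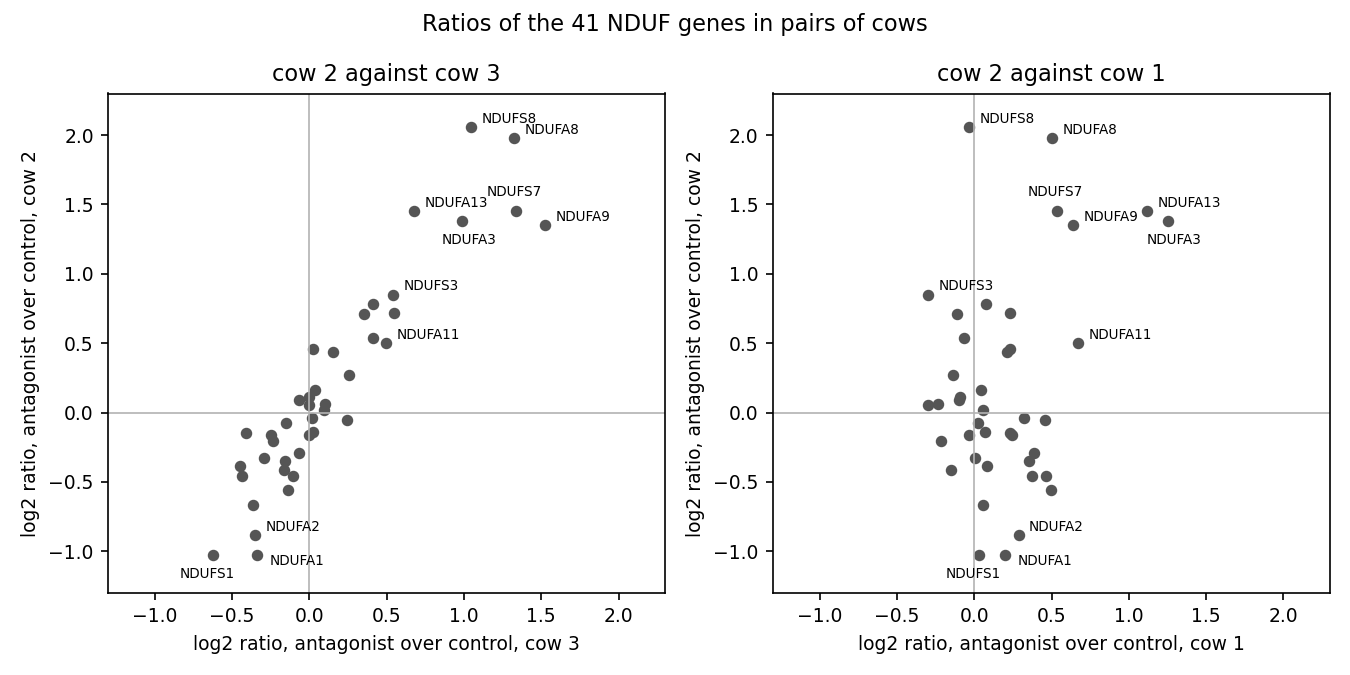
Log2 ratios of antagonist over control of the 41 NDUF genes, cow 2 (y axis) against cow 3 (left) and against cow 1 (right), 1 point per gene. The left cloud follows a line (r = 0.93), while on the right NDUFS8 and NDUFS3 are above 0 in cow 2 and below it in cow 1, and NDUFA1, NDUFA2 and NDUFS1 are below 0 in cow 2 and above it in cow 1.

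The dye exchange bears on these ratios. A dye term passed an adjusted p under 0.05 for 36 of 41 genes (87.8%), against 64.6% of all genes, and for 24 of the 36 the spot was dimmer in Cy5. All 6 core genes were among those 24. The median log2 ratio of the 41 genes was 0.26, 0.19 and 0.08 in cows 1, 2 and 3 where control RNA carried Cy5, and 0.0082, -0.06 and -0.06 where antagonist RNA did. The mean of both orientations, used throughout, cancels such a term. NDUFS7 had the largest dye term of the genes named, at -0.66, with a log2 ratio of 0.45 from the 3 arrays with antagonist in Cy5 and 1.77 from the 3 with control in Cy5. No label states the slides. If they are marked by a number that the file names carry, all 3 arrays with antagonist in Cy5 and the other array of cow 2 were on the same slide, and dye orientation and slide would be partly confounded.

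Several probes were available for 16 genes, and 14 of these had the same sign of mean ratio at every probe. NDUFS7 had 4 probes, with mean log2 ratios of 1.11, 1.28, 0.42 and 0.03, of which all but the last were positive in all 3 cows. Their mean log2 intensities were 9.42, 8.80, 8.15 and 7.73 in that order. The probes of NDUFA3 gave 1.21 and 0.38, both positive in all 3 cows. The probes of NDUFA8 gave 1.27 and 0.83, and those of NDUFA11 gave 0.56, 0.41 and 0.21. NDUFS8 had 1.02 at its brightest probe and 0.11 at the other, where cow 1 was positive as well. Their mean log2 intensities were 10.45 and 7.55, and the dimmer probe had 4 of 6 control readings above background. Whether dim signal lowered the ratios of such probes was not tested. NDUFS1 had 0.03, 0.09 and 0.11 in cow 1 at its 3 probes, and negative ratios in cows 2 and 3 at all of them. NDUFS3 and NDUFV3 were the genes whose probes differed in sign, with 0.37 and -0.12 for NDUFS3 and 0.10 and -0.05 for NDUFV3. NDUFA9, NDUFA13, NDUFV1 and NDUFC2 each had a single probe, as had 25 genes in all.

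**Figure D4:**
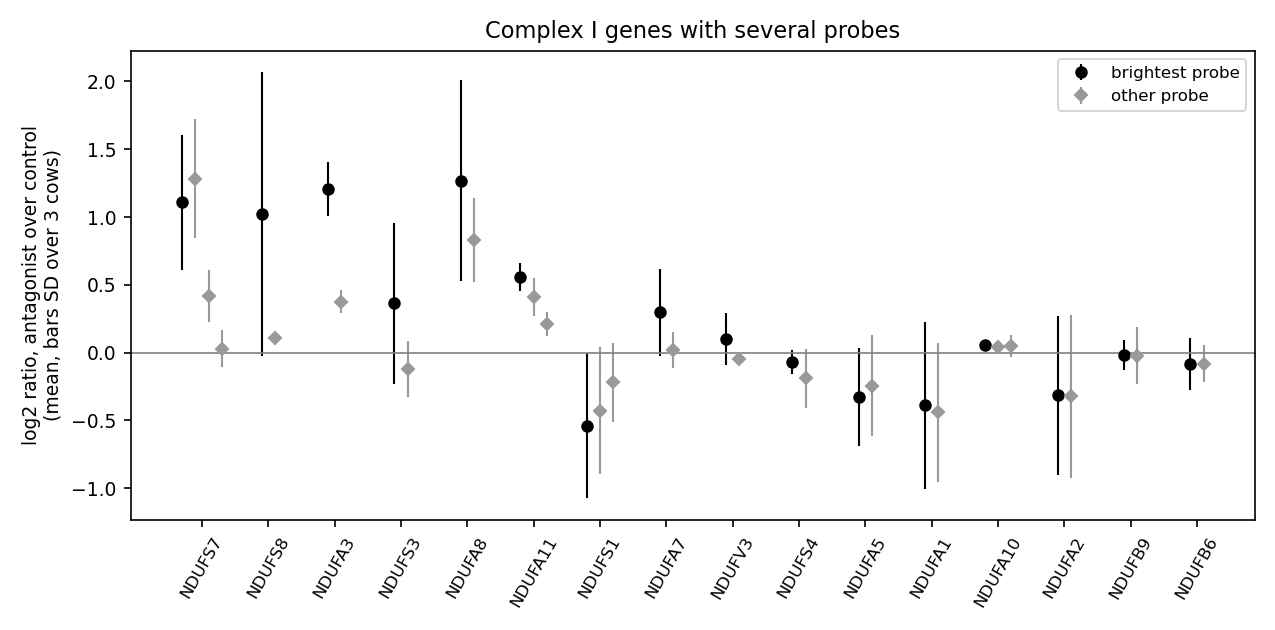
Log2 ratio of antagonist over control at every probe of the 16 genes with several probes, as mean over 3 cows with bars for the SD. Black circles are the brightest probes and grey diamonds the others. The probes of NDUFS7 spread from 0.03 to 1.28, while those of NDUFA1, NDUFA2 and NDUFA5 lie close together.

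The authors' deposited log2 ratios gave nearly the same means. In that table the mean over the 6 arrays was 1.27 for NDUFA8, 1.19 for NDUFA3, 1.16 for NDUFA9, 1.09 for NDUFS7, 1.07 for NDUFA13 and -0.54 for NDUFS1. How those ratios were normalised is not known.

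Genes that work beside complex I gave no more uniform picture, and none passed correction. The 6 measured assembly factors without an NDUF symbol had a median log2 ratio of -0.03, 2 above 0 and 4 below, and none passed an unadjusted p under 0.05. Of 6 genes for complex II, which feeds electrons from succinate into ubiquinone, 4 were above 0 and 2 below with a median of 0.11, and SDHAF2 alone had an unadjusted p under 0.05, at 0.20 ± 0.04 (SD, n = 3). Its subunit genes varied between cows, with SDHB at -0.20, 0.88 and 0.57 and SDHD at -0.01, -1.61 and -0.58 in cows 1, 2 and 3. Of 11 genes for iron-sulfur cluster assembly, which supply the cofactors of the core, 6 were above 0 and 5 below with a median of 0.0043, and at that threshold none was higher and 2 were lower. Of 8 genes for other routes of electrons into ubiquinone, 6 were above 0 with a median of 0.13, and at that threshold 1 was higher and 2 were lower. SQRDL, which oxidises sulfide in the inner membrane, was the lowest of them, with log2 ratios of -0.56, -0.50 and -0.50 in cows 1, 2 and 3 (limma adjusted p = 0.28). Of 10 regulators of nuclear respiratory genes, 4 were above 0 and 6 below with a median of -0.09. At an unadjusted p under 0.05, 2 of them were higher, ESRRA (0.30) and PPRC1 (0.37), and 2 were lower, PPARGC1A (-0.38) and TFB2M (-0.59). These shares stand beside the 8.57% of all genes higher and 6.57% lower at that threshold.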

How the data were processed

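The members and the gene lists were chosen with earlier results of these data known. Per the file headers, the deposited scanner files give uncorrected intensity: mean pixel values of each spot and of its surroundings at 635 nm for Cy5 and 532 nm for Cy3. Median Cy5 spots were at 191 to 272 per array (negative controls 154 to 222) and median Cy3 spots at 219 to 277 (170 to 214), which limits the precision of dim probes. The brightest probe spot of each array had a mean of 38906 to 41131, and saturation of single pixels was not tested.

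R 4.3.3 with limma 3.58.1 was used for normexp correction (offset 50) and loess within arrays, with control spots weighted 0. Probes were kept if 3 or more of the 6 readings of a condition exceeded the mean of 152 negative controls by 2 SD. Ratios were turned to antagonist over control, the 2 arrays of a cow averaged, and 3 values tested against 0 (two-sided, with lmFit, eBayes and Benjamini-Hochberg adjustment over 32527 probes). Pairing comes from the labels, by which each cow served as its own control. Log2 intensities shown are Aquantile-normalised and averaged over both dyes. The fit was run on simulated data in which changed probes had the median SD over cows of all probes, 0.11. That median was 0.25 for the NDUF genes, so the simulation does not speak to the recovery of genes as variable as these.

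The authors' deposited table of log2 ratios, an alternative here, already ran as antagonist over control on each array. Its slopes against the scanner ratios were 0.986 to 1.00, and its column medians were 0.0010, 0.0016, -0.0029, 0.0010, 0.0018 and 0.00049 (cows 1 to 3, control in Cy5 first). Centring by the authors is not stated in the sources used here.

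Symbols came from the platform annotation, and no genome build is named in the sources used here, so no positions are given. All 41 NDUF symbols occur among 47 in RefSeq's ARS-UCD2.0 table, and the other 6 and the mitochondrially encoded subunits were not analysed here. Genes given in full were the 6 largest positive and up to 4 largest negative means of 1 sign in all cows (3 negatives existed), the core, the assembly factors, NDUFA4, NDUFA4L2, and genes whose probes differed by over 0.5. Others were named after their values were seen, as were genes of the lists beside complex I. Alternatives covered background, normalisation, filter, pairing, variance model, inferred slide, dye orientation, the authors' ratios and each cow left out.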

Additional observations from a re-analysis of the deposited data

How the results depend on the processing

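With 3 cows, power is limited, and dim probes near the negative controls limit it further. Each of 20 alternatives kept the sign of NDUFA8, NDUFA3, NDUFA9, NDUFS7, NDUFA13, NDUFS8, NDUFS1, NDUFB3 and NDUFC2, as did 19 for NDUFA11 and NDUFV1, which have no value above background in all 12 readings. The counts for the difference between cows and the dye term stayed within 1.5 times. The count of 10 NDUF genes at an unadjusted p under 0.05 (12.7% of all probes) was 16 with arrays single and the cow as a random replicate block (18.4%), 18 on the 4 arrays that share a slide by the number in their file names (23.5%), 17 with antagonist in Cy5 (28.9%) and 19 with control in Cy5 (31.4%), and ran from 4 without cow 3 (4.89%) to 22 without cow 1 (22.8%). The median log2 ratio of 0.0084 was -5.01e-05 with median centring, -0.017 for genes above background in all 12 readings, 0.047 on that slide, -0.045 with antagonist in Cy5 and 0.046 with control in Cy5, and 0.024 to 0.0995 with a cow left out. Probes at an adjusted p under 0.05, 0 in the fit reported, were 848 with the cow replicate block, 1346 with this inferred slide as a random block, 8 unpaired with no replicate block, 186 with antagonist in Cy5 and 109 with control in Cy5. The slide block called NDUFC2 in addition to the 5 genes of the cow block. The 3 arrays of 1 orientation leave the dye effect in, and single arrays count a cow's 2 hybridisations apart; otherwise the cause of a change was not tested.

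Of the genes given in full, these changed sign. With median centring NDUFAF1 was 0.0052 and NDUFA4 -0.084, and on the inferred slide they were 0.063 and -0.13. With antagonist in Cy5, NDUFS3 was -0.028, NDUFAF3 -0.024 and NDUFA4L2 -0.23. With control in Cy5, NDUFV2 was 0.058 and NDUFA4 -0.087. With a cow left out, NDUFAF1 ran from -0.083 to 0.011, NDUFA4 from -0.18 to 0.16, NDUFAF4 from -0.25 to 0.0995 and NDUFA4L2 from -0.047 to 0.057. At an unadjusted p under 0.05 the cow replicate block also called NDUFS1, NDUFS8 and NDUFV2 among these genes. NDUFC2 lost its call unpaired and, with NDUFB3, under eBayes with an intensity trend (adjusted p 0.58 and 0.53), and NDUFB3 lost it above background in all 12 readings.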
